A study of Mus musculus with 2 samples.

Results

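The mir-30 family of microRNAs was measured in the left cerebral cortex of young mice, in its 6 genes Mir30a, Mir30b, Mir30c-1, Mir30c-2, Mir30d and Mir30e. These 6 genes were taken by symbol from the 2202 microRNA genes of the count tables, and all 6 were found there. The tissue came from 2 female mice of the B6CASTF1/J strain, first-generation hybrids of a laboratory strain and a wild-derived strain, at 10 days of age. The mice form a single untreated group and are called animal 1 and animal 2 after their replicate numbers; they have separate female numbers but share 1 donor entry in the labels. Total RNA was used to make libraries of short RNA, which were sequenced, and reads were counted per hairpin gene on the gene's own strand.

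MicroRNAs are cut from hairpin transcripts, and a hairpin can give a mature RNA from its 5′ arm (5p) and from its 3′ arm (3p). The mature RNA guides a silencing complex to messenger RNAs, mainly through its seed, bases 2 to 8. The 5p RNAs of the mir-30 family carry a common seed and are known to be made in many tissues, the brain among them. In human cells miR-30a is known to repress the autophagy gene BECN1, and in human prefrontal cortex it has been tied to the neurotrophin BDNF. No messenger RNA was measured here, so targets are background only.

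The members lie in 3 clusters of 2 genes (mm10, GENCODE M21). On chromosome 15, Mir30b (ENSMUSG00000065476.2, chr15:68337415-68337510, minus strand) and Mir30d (ENSMUSG00000065437.1, chr15:68341208-68341289, minus strand) are 3697 bases apart. Mir30d lies wholly in an exon of the long non-coding RNA gene Gm20732, and 16 bases of Mir30b overlap an exon of Gm26621. On chromosome 1, Mir30a (ENSMUSG00000065405.3, chr1:23272269-23272339, plus strand) lies in no other annotated gene. Its partner Mir30c-2 (ENSMUSG00000065567.1, chr1:23291701-23291784, plus strand) lies 19361 bases away in an exon of the long non-coding RNA gene Gm27028. On chromosome 4, Mir30c-1 (ENSMUSG00000065490.1, chr4:120769534-120769622, minus strand) and Mir30e (ENSMUSG00000065409.1, chr4:120772606-120772697, minus strand) are 2983 bases apart in introns of Nfyc, which codes for a subunit of the transcription factor NF-Y.

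Mature sequences of 4 of the 6 members matched RefSeq's table (build GRCm38.p6); Mir30b and Mir30d are named only. The 5p sequences are shown because they decide which members can be told apart by their reads, with the seed in capitals, 5′ to 3′.
miR-30a-5p (Mir30a): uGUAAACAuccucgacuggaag
miR-30e-5p (Mir30e): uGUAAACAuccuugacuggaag
miR-30c-5p (Mir30c-1 and Mir30c-2): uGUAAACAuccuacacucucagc
miR-384-5p (Mir384): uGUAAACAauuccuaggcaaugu
The 4 members share the first 12 bases of their 5p sequence. Counted from the 5′ end, miR-30a-5p and miR-30e-5p differ by 1 base, C13U. The 5p sequence of Mir30c-1 is identical to that of Mir30c-2 over its 23 bases, and the hairpins share a run of 28 bases. This 5p seed belongs to 5 genes in that table, namely the 4 members and Mir384, a gene of the X chromosome outside the family by name, whose 5p sequence leaves the family's after 8 bases.

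The 3p sequences of these 4 members fall into 2 seed groups, shown with bases 2 to 8 in capitals.
miR-30a-3p (Mir30a): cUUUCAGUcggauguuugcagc
miR-30e-3p (Mir30e): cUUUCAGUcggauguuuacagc
miR-30c-1-3p (Mir30c-1): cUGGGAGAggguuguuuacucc
miR-30c-2-3p (Mir30c-2): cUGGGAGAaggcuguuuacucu
The 3p RNAs of Mir30a and Mir30e differ by 1 base, G18A, and the seed UUUCAGU was found in no other gene of the table. Mir30b and Mir30d have no sequence there, so their 3p seeds were not compared. The 3p RNAs of Mir30c-1 and Mir30c-2 differ at 3 positions, G9A, U12C and C22U. The seed UGGGAGA was also found in Mir6958. The whole 3p sequence of either Mir30c gene was found in no other hairpin of the table, in contrast to their 5p sequence. Reads of the arms are summed in the deposited counts, so the arm behind a level was not analysed here.

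Depth was 3806078 own-strand reads over all microRNA genes for animal 1 and 2602935 for animal 2. Reads that map to several positions made up 42.7 and 40.4% of all reads and stand outside the gene counts, in a row of their own. Since miR-30c-5p has the same sequence at both of its genes, reads of its whole length stand in that row and in neither gene's count. The levels of Mir30c-1 and Mir30c-2 are uncertain, since they lack these reads and may understate the genes. How many such reads there were was not tested. Markers of cortical cell types gave the setting: 5 of 8 neuronal genes reached 10 CPM (reads of a gene scaled to a common library size) in both libraries, with a summed 3.79 and 3.91% of reads in animals 1 and 2. The 3 Mir124a genes stayed under 10 CPM, and of the 3 Mir9 genes, of precursors and astrocytes, 2 reached it, with a summed 0.0126 and 0.0197%; these genes too have several copies by symbol. The 2 oligodendrocyte genes summed to 0.117 and 0.164%, the 2 genes of smooth muscle and pericytes to 0.315 and 0.452%, the 4 of microglia and blood to 0.0841 and 0.113%, and the choroid plexus gene Mir204 to 0.0865 and 0.0751%. Endothelial Mir126a took 2.89% in animal 1 and 0.826% in animal 2. The 2 genes of liver and striated muscle, Mir122 and Mir206, summed to 0.00633 and 0.00699%. No marker was at 0. In bulk tissue, fewer cells of a type and less RNA per cell cannot be told apart.

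All 6 members reached 10 CPM in both libraries, against 13.9% of all microRNA genes, and 3 of the 6 reached 1000 CPM, against 4.18%. By their counts they fell into an abundant and a scarce set, with 1 gene of each set in every cluster. The scarce set includes Mir30c-1 and Mir30c-2, whose counts leave out reads of the whole miR-30c-5p, so their levels may be too low. The family as a whole held 85058 reads in animal 1 and 42192 in animal 2. As a share of counted reads this came to 2.23% for animal 1 (exact Clopper-Pearson 95% bounds 2.22 and 2.25). For animal 2 it came to 1.62% (bounds 1.61 and 1.64), and the mean share was 1.93% ± 0.434 (SD, n = 2). Intervals cover counting error only, and an SD of 2 animals rests on a single difference.

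Mir30d was the most abundant member. It had 57079 reads in animal 1, a level of 14997 CPM, and 25542 reads in animal 2, a level of 9813 CPM. Its mean was 12405 CPM ± 3666 (SD, n = 2), and it ranked 18th in animal 1 and 20th in animal 2 among the 2202 genes. Its level in animal 1 was above that in animal 2, and both were above every value of the other members.

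Mir30a and Mir30e, whose 5p RNAs differ by a single base, stood close to each other. Mir30a had 14592 and 8593 reads, or 3834 and 3301 CPM in animals 1 and 2 (mean 3568 ± 377, SD, n = 2). Mir30e had 11747 and 6631 reads, or 3086 and 2548 CPM (mean 2817 ± 381). Mir30a was above Mir30e in each animal, by 1.24-fold in animal 1 (95% bounds 1.21 and 1.27) and 1.30-fold in animal 2 (1.25 to 1.34), and their levels did not overlap.

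By counted reads, the other members were scarce. Mir30c-2 had 667 reads in animal 1 and 600 in animal 2, or 175 and 231 CPM (mean 203 ± 39.1, SD, n = 2). Mir30b, the chromosome 15 partner of Mir30d, had 552 and 453 reads, or 145 and 174 CPM (mean 160 ± 20.5). Mir30c-1 had 421 and 373 reads, or 111 and 143 CPM (mean 127 ± 23.1). In each of these genes the level in animal 2 was the higher one, opposite to the abundant members. The step from Mir30e down to Mir30c-2 was 17.6-fold in animal 1 and 11.1-fold in animal 2. It may be too large, since the level of Mir30c-2 may be too low.

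**Figure D1:**
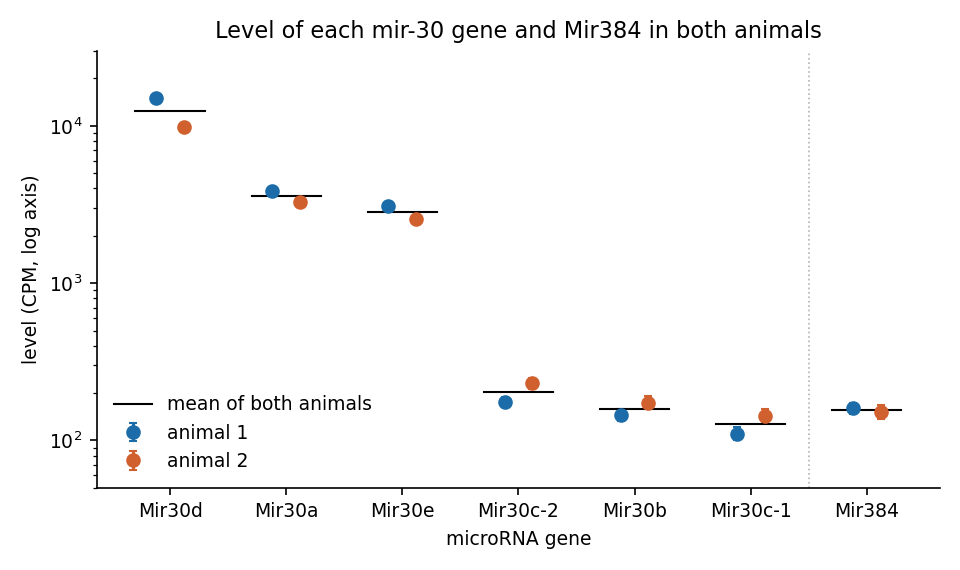
Level of each member and of Mir384 (CPM, log axis) in animal 1 (blue) and animal 2 (orange), with exact 95% counting intervals and the mean as a line. Mir30d, Mir30a and Mir30e lie between 2548 and 14997 CPM and the other members between 111 and 231 CPM, with Mir384 among the latter.

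The order Mir30d, Mir30a, Mir30e, Mir30c-2, Mir30b, Mir30c-1 was the same in both animals. Neighbours in this order did not overlap between animals. The means of Mir30c-2 and Mir30b differed by 43.3 CPM, against SDs of 39.1 and 20.5 CPM, and the lowest value of Mir30c-2 (175 CPM) lay next to the highest of Mir30b (174 CPM). Within a library, Mir30c-2 was 1.21-fold above Mir30b in animal 1 (95% bounds 1.08 and 1.36) and 1.32-fold in animal 2 (1.17 and 1.5). The means of Mir30b and Mir30c-1 differed by 32.6 CPM, against SDs of 20.5 and 23.1 CPM, with ratios of 1.31 in animal 1 (1.15 and 1.49) and 1.21 in animal 2 (1.06 and 1.40). These steps among the scarce genes were thus small but had the same direction in each library. They hold for counted reads only. Levels of Mir30c-1 and Mir30c-2 may be too low, so their places in the order are uncertain. Mir30e was above Mir30c-2 by 2614 CPM, against SDs of 381 and 39.1 CPM. Mir30d was above Mir30a by 8837 CPM, against SDs of 3666 and 377, and Mir30a above Mir30e by 751 CPM, against SDs of 377 and 381. The order was not tested, since an exact permutation test over pairs of values from 2 animals cannot go below p = 0.5.

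**Figure D2:**
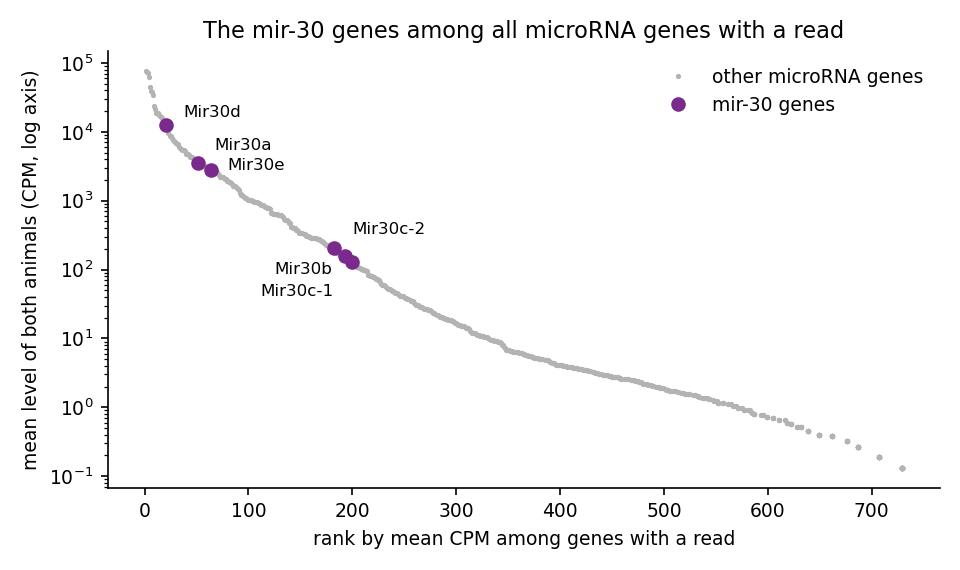
Mean level of both animals (CPM, log axis) against rank for the microRNA genes with at least 1 read, the members in purple. Mir30d stands at rank 21, Mir30a at 51 and Mir30e at 64, and Mir30c-2, Mir30b and Mir30c-1 at 182, 193 and 200. Levels of Mir30c-1 and Mir30c-2 may be too low, so their ranks are uncertain.

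Mir384, which shares the 5p seed, had 610 and 396 reads, or 160 and 152 CPM in animals 1 and 2 (mean 156 ± 5.75, SD, n = 2). In rat neurons its 5p RNA is known for a role in synaptic potentiation. Its level was like those of the scarce members, and it raised the family's share from 1.93% to 1.94% of counted reads. By distance of log2(CPM + 0.5) over the 2 libraries it was also the second gene nearest to Mir30b (distance 0.24), after Mir669o (0.097).

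The same measure gave the genes nearest in level to the others, over 2 samples only. Nearest to Mir30d were Mir298 (distance 0.26) and Mir125a (0.52). Nearest to Mir30a were Mir431 (0.12) and Mir341 (0.23), both of the Dlk1-Dio3 region of chromosome 12, and nearest to Mir30e were Mir138-1 (0.12) and Mir125b-1 (0.13). Mir16-2 (0.045) and Mir493 (0.25) were nearest to Mir30c-1, and Mir500 (0.30) and Mir669o (0.40) to Mir30c-2. The likeness is one of level in these libraries and says nothing more.

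Within the family, the cluster of chromosome 15 held 67.8% of reads for animal 1 (95% bounds 67.4 and 68.1). For animal 2 it held 61.6% (61.1 and 62.1), and its mean share was 64.7% ± 4.34 (SD, n = 2). The cluster of chromosome 1 held 17.9 and 21.8% (mean 19.9% ± 2.72), and that of chromosome 4 held 14.3 and 16.6% (mean 15.5% ± 1.62). The order of the clusters was the same in both animals, and each cluster's share differed between the animals by more than the counting intervals. By gene, Mir30d held 67.1 and 60.5% of family reads in animals 1 and 2, Mir30a 17.2 and 20.4%, and Mir30e 13.8 and 15.7%. The scarce genes together held 1.93% in animal 1 (1.84 to 2.02) and 3.38% in animal 2 (3.21 to 3.56).

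**Figure D3:**
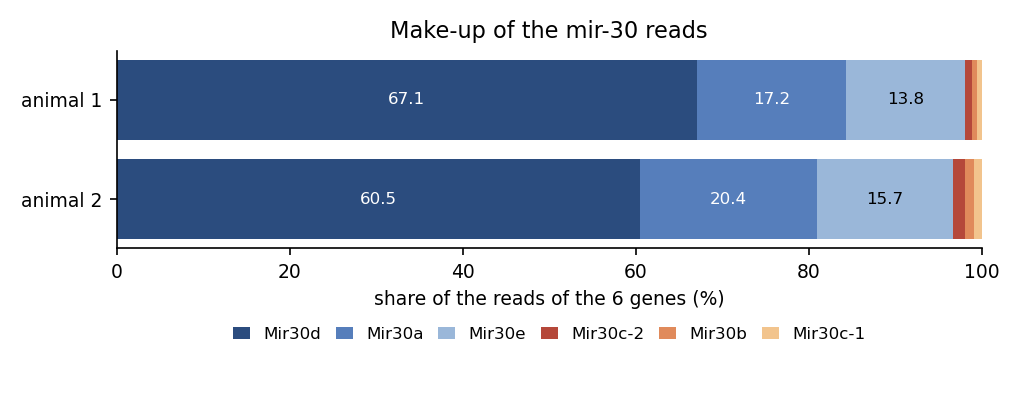
Share of each gene in the reads of the 6 members (%), 1 bar per animal. Mir30d takes 67.1% in animal 1 and 60.5% in animal 2, and the 3 scarce genes at the right end take 1.93 and 3.38%.

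The genes of each cluster differed widely in reads, and by more in animal 1 than in animal 2. Such ratios within a library do not depend on how the libraries are scaled. On chromosomes 4 and 1 the scarce partner is Mir30c-1 or Mir30c-2, whose levels may be too low. The ratios of these clusters may therefore be too high, and their intervals cover counting error only. The part of reads that map to several positions in these ratios, or in their shift between the animals, was not tested. There were 103 reads of Mir30d per read of Mir30b in animal 1 (95% bounds 95.1 and 113) and 56.4 in animal 2 (51.4 to 62.0). For Mir30e and Mir30c-1 the ratio was 27.9 in animal 1 (25.3 to 30.8) and 17.8 in animal 2 (16.0 to 19.8). For Mir30a and Mir30c-2 it was 21.9 in animal 1 (20.2 to 23.7) and 14.3 in animal 2 (13.2 to 15.6). In no cluster did the intervals of the animals overlap. The ratio of animal 1 was 1.83 times that of animal 2 on chromosome 15 (95% interval 1.62 to 2.08, from the standard error of the log odds ratio), 1.57 times on chromosome 4 (1.36 to 1.81) and 1.53 times on chromosome 1 (1.36 to 1.71).

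**Figure D4:**
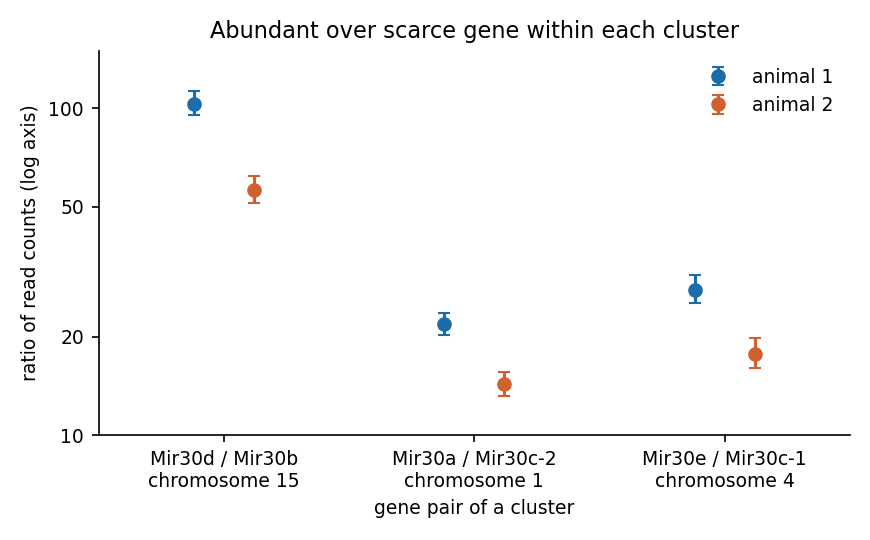
Reads of the abundant gene per read of the scarce gene of each cluster (log axis), in animal 1 (blue) and animal 2 (orange) with exact 95% intervals for counting error. In each cluster the value of animal 1 lies above that of animal 2, from 103 against 56.4 for Mir30d and Mir30b to 21.9 against 14.3 for Mir30a and Mir30c-2. Levels of Mir30c-1 and Mir30c-2 may be too low, so the ratios over them may be too high.

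Neighbouring microRNA genes elsewhere were set beside these pairs. Outside the family, 121 pairs of adjacent tested genes on the same strand lay within 25 kb of each other, and some share a gene. Their median ratio of mean levels was 7.32. It was 77.8 for Mir30d and Mir30b, with 11 outside pairs above it, 22.2 for Mir30e and Mir30c-1, with 36 above it, and 17.6 for Mir30a and Mir30c-2, with 38 above it. In 54 of the 121 pairs, or 44.6%, the more abundant gene was shifted to animal 1, as it was in the 3 pairs of the family. Shifts to animal 1 larger than that of Mir30d over Mir30b were seen in 12 outside pairs. For Mir30e over Mir30c-1 and for Mir30a over Mir30c-2 the numbers were 20 and 21. Counted in either direction, larger shifts were seen in 41, 56 and 58 outside pairs, in the same order. Unequal partners were thus common among clustered genes, and shifts of this size between the animals were not rare. The places of the pairs with Mir30c-1 and Mir30c-2 among the outside pairs are uncertain, since the levels of these genes may be too low.

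Between the animals, 5 of the 6 members differed by more than counting noise, 2 higher in animal 1 and 3 higher in animal 2. The exact conditional binomial test, with TMM scaling and Benjamini-Hochberg adjustment over 531 genes, compares these 2 libraries and no conditions. Of all genes tested it called 51.6%, with 26.9% higher in animal 1 and 24.7% higher in animal 2, so that calls as such were common. The median absolute log2 ratio was 0.44 over the 6 members and 0.51 over the 531 genes. No member differed 2-fold, which 16.9% of all genes did with a call.

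Mir30d was 1.33-fold higher in animal 1 by this test, with a log2 ratio of 0.41 (95% bounds 0.39 and 0.43) and an adjusted p of 1.9e-299 or lower. Mir30e was 1.05-fold higher in animal 1, with a log2 ratio of 0.074 (0.030 to 0.12; adjusted p = 0.0022). Mir30a had a log2 ratio of 0.013 (-0.026 to 0.051) and did not pass the binomial test (adjusted p = 0.645). With DESeq2 size factors Mir30e did not pass and Mir30a had a log2 ratio of -0.038, leaving 1 member, Mir30d, higher in animal 1, against 24.1% of all genes. The column of both strands, where Mir30e could not be tested, gave the same 1 member, against 25.8%. With library totals only all of these abundant genes were higher in animal 1, against 35.6% of all genes.

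The scarce genes were all higher in animal 2, under every scaling tried. The log2 ratio of animal 1 over animal 2 was -0.47 for Mir30b (95% interval -0.65 to -0.28; binomial test, adjusted p = 1.5e-06). It was -0.58 for Mir30c-1 (-0.78 to -0.37; adjusted p = 8.7e-08) and -0.60 for Mir30c-2 (-0.76 to -0.44; adjusted p = 9.7e-13). These genes were 1.38, 1.49 and 1.51-fold higher in animal 2. For Mir30c-1 and Mir30c-2 this holds for counted reads only, which leave out reads of the whole miR-30c-5p. Whether that RNA differed between the animals was not tested. Mir384, of the same 5p seed, had a log2 ratio of -0.13 (-0.31 to 0.06) and did not pass the test (adjusted p = 0.268).

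**Figure D5:**
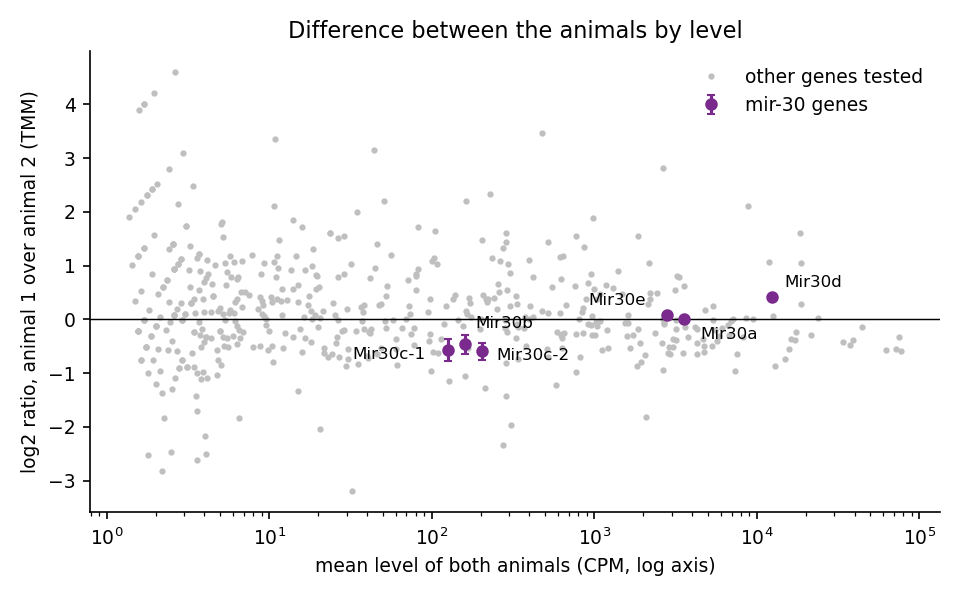
Log2 ratio of animal 1 over animal 2 (TMM) against the mean level of both animals (CPM, log axis) for the 531 genes tested, with the members in purple and their exact 95% intervals. Mir30d lies at 0.41, Mir30a and Mir30e near 0, and Mir30b, Mir30c-1 and Mir30c-2 between -0.60 and -0.47, all within the spread of the other genes.

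Library totals alone moved the median log2 ratio of all 531 genes by 0.20, to 0.25, and gave calls for 35.6% of them in the direction of animal 1 and 17.1% in that of animal 2. Relative to the median of all genes, which no scaling of the same genes changes, Mir30d stood at 0.36, Mir30e at 0.029, Mir30a at -0.032, Mir30b at -0.51, Mir30c-1 at -0.62 and Mir30c-2 at -0.64. The family summed over its genes had a log2 ratio of 0.26 (0.24 to 0.28), and the 5 members without Mir30d one of -0.0025 (-0.030 to 0.025). After TMM the family total was thus higher in animal 1 through Mir30d, while by plain shares the 5 other members held 0.735 and 0.640% of counted reads. Among the markers, Mir126a of the endothelium had 28913 CPM in animal 1 and 8265 CPM in animal 2. Markers of smooth muscle and pericytes were higher in animal 2. Mir145a had 141 and 477 CPM in animals 1 and 2, and Mir143 had 3004 and 4047 CPM. Mir219a-2 (566 and 974 CPM) and Mir338 (601 and 665 CPM) of oligodendrocytes were also higher in animal 2. The neuronal list was mixed, with Mir137 at 9278 and 7888 CPM and Mir128-1 at 15292 and 17136 CPM. So was that of precursors and astrocytes, with Mir9-1 at 34.4 and 26.1 CPM and Mir9-3 at 87.5 and 168 CPM. The list of microglia and blood was mixed as well. Mir150 (672 and 955 CPM) and Mir142 (87.5 and 116 CPM) were higher in animal 2. Mir155 was nearly equal (53.3 and 51.9 CPM), and Mir451a was higher in animal 1 (27.9 and 9.6 CPM). Unmapped reads took 17.9% of the library of animal 1 and 23.5% of that of animal 2. The part of unmapped reads or of cell types in the differences between the animals was not tested. Any gene can only lean to animal 1 or to animal 2, so a shared direction alone says little.

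The strand columns bore on Mir30e alone. No member had a read on the opposite strand in either animal. Mir30e and Mir30f, a gene annotated on the same 92 bases of the other strand, overlap fully. In the column of both strands Mir30e was listed at 0 in each animal, against 11747 and 6631 reads on its own strand, while the other members had the same count in both columns. Mir30f had 0 own-strand reads, which allows up to 0.788 CPM in animal 1 and 1.15 CPM in animal 2. The mature miR-30f is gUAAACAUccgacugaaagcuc, shown for its start: it begins with the letters of the mir-30 seed 1 base early, so that its own seed, in capitals, is a different one.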

How the data were processed

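MicroRNA sequencing of 2 libraries, 1 per animal, was used. The deposited tables hold raw read counts of 2202 microRNA genes, in columns for both strands, the own strand and the opposite strand; the build was mm10 and the annotation GENCODE M21, per the notes beside the deposited tables. The sources used here name no aligner or counter. All gene IDs were found in M21. Own-strand counts were used, and the 4 rows of reads not counted to a gene were left out of library sizes (66.5 and 69.6% of reads in animals 1 and 2). Depth was 3806078 and 2602935 counted reads, so that 3 counts, the limit a count of 0 allows, were 0.788 and 1.15 CPM.

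Levels are CPM over counted reads. Shares and ratios have exact 95% intervals. The libraries were compared by a two-sided exact conditional binomial test given TMM sizes (edgeR 4.0.16 in R 4.3.3, scipy 1.17.1), over 531 genes with at least 10 counts summed, at an adjusted p of 0.05; 0.5 was added for log2 ratios. The test was also tried on simulated counts with known fold changes, counting noise only and library totals as sizes. That trial does not cover further variation between animals or TMM scaling. Alternatives were library totals, DESeq2 1.42.0 size factors, filters of 1 and 100 counts, the column of both strands, other thresholds and denominators, and each library alone. The members and lists were chosen with earlier results of these data known. Named genes are the members, genes with their 5p seed, microRNA genes within 10 kb, and the 2 genes nearest in level to each member. Neighbouring pairs and level ranges were chosen after their values were seen. Replicates are taken as separate animals from their female numbers.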

Additional observations from a re-analysis of the deposited data

Results flagged for a closer look

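Reads on the strand opposite a gene lie outside the levels above, and among the members and the genes within 10 kb of them 1 gene had such reads. The strand opposite Mir30f held 11747 reads in animal 1 and 6631 in animal 2, above the limit of 3 counts that a count of 0 allows. These numbers are equal to the own-strand counts of Mir30e, which is annotated on the same 92 bases.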

How the results depend on the processing

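The family's share moved by less than the spread between the animals in the column of both strands (1.78%) and with TMM sizes (1.91%). All 6 members were also detected at 1 and at 100 CPM, and 5 in the column of both strands. The clusters' shares were moved by the column of both strands, the only setting tried for them besides leaving out an animal. Over all reads of a library the family held 0.621%. In the column of both strands, where Mir30e has no count, the clusters of chromosomes 15, 1 and 4 held 75.9, 23.3 and 0.812% of family reads. With either animal left out, the family's share ran from 1.62 to 2.23%, and those of the clusters from 61.6 to 67.8%, 17.9 to 21.8% and 14.3 to 16.6%. Leaving out 1 of 2 animals always moves a mean by less than their SD, so these ranges say nothing on stability. At 1000 CPM 3 members were detected. At least 2-fold, 0 members were called, 0 higher in animal 1 and 0 in animal 2 (exact binomial test; 5 of 6 were called without the fold). With DESeq2 size factors and in the column of both strands 1 member was higher in animal 1. Mir30a reversed with DESeq2 size factors, to a log2 ratio of -0.038 (binomial test, adjusted p = 0.0978; 9.5e-28 to 0.645 over the rest, TMM included), and passed with library totals and with filters of 1 and 100 counts. Mir30e did not pass with DESeq2 size factors (binomial test, adjusted p = 0.424; 1.3e-35 to 0.0022 over the rest, TMM included). The DESeq2 factors scale animal 1 down further than TMM. Levels of Mir30c-1 and Mir30c-2 are limited by their common 5p sequence. No paired analysis was possible because the 2 libraries form 1 group.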

Other observations

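Other genes at the levels of the members were also compared between the animals, in ranges chosen after the values were seen. Of 49 genes outside the family with a mean of 100 to 300 CPM, 27 were higher in animal 1 and 13 in animal 2 by the exact binomial test with TMM, with a median log2 ratio of 0.30 (quartiles -0.18 and 1.02). The family's 3 genes in this range stood between -0.60 and -0.47. Library totals alone gave 32 and 10, and DESeq2 size factors gave 25 and 14, scalings added after the values were seen. Of 65 genes with a mean of 2000 to 20000 CPM, 19 were higher in animal 1 and 40 in animal 2, with a median log2 ratio of -0.19 (quartiles -0.49 and 0.18). In this range Mir30d stood at 0.41, Mir30e at 0.074 and Mir30a at 0.013. With DESeq2 size factors the numbers were 17 and 45, but with library totals only they were 31 and 30, with a median of 0.016, so that the lean of this range to animal 2 was not seen there.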
